A study of Homo sapiens with 14 samples.

Results

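Described here are 39 genes of the lysosome and of autophagy, among 62703 genes counted in prostate cancer cells treated with a CDK8/CDK19 inhibitor. They were chosen by name for the roles of their proteins, with earlier results of these data known. Counts of members set beside all genes are therefore descriptions and not an independent test. All 39 were present in the count table, and 31 had enough counts to be tested. The cells were LNCaP, 22Rv1 and PC3, established human prostate cancer cell lines, and each was kept for 3 days in 1.5 µM SEL120-34A or in its solvent, dimethylsulfoxide (DMSO). SEL120-34A blocks the kinases CDK8 and CDK19, which belong to the Mediator complex that links transcription factors to RNA polymerase II. LNCaP and 22Rv1 had 3 libraries per arm and PC3 had 1. The study set out to learn whether blocking these kinases acts like lowering the Mediator subunit MED12 in cells that respond to the drug enzalutamide and in cells that resist it.

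The lysosome is the acidic compartment in which cells break down proteins, sugars and lipids. Its lumen holds hydrolases such as cathepsins, a proton pump (the V-ATPase) keeps it acidic, and heavily glycosylated proteins such as LAMP1 and LAMP2 cover its membrane. Autophagy brings cytoplasmic material to it in vesicles that carry proteins of the LC3 and GABARAP family, to which the cargo receptor p62 (SQSTM1) binds. The transcription factors TFEB, TFE3 and MITF bind an element with the core letters CACGTG in the promoters of many of these genes.

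The measurement was BRB-seq, which barcodes the samples before pooling and sequences the 3′ ends of transcripts. Libraries held 246063 to 909176 counts, and levels are given as CPM (counts scaled to a common library size), with TMM factors that correct for differences in library composition. As a check of the line labels, VIM, which encodes vimentin and marks PC3, was at 1262 and 1110 CPM in the PC3 libraries and at 8.27 to 51.5 CPM in those of LNCaP and 22Rv1. The leukocyte marker PTPRC had 0 counts in all 14 libraries. Mitochondrially encoded transcripts took 13.9 to 17.3% of the counts in LNCaP DMSO and 16.5 to 23.3% in LNCaP SEL120-34A libraries, and 7.60 to 9.82% against 9.52 to 13.1% in 22Rv1. The treated 22Rv1 libraries, at 246063 to 368778 counts, were all shallower than their controls, at 476455 to 777207. The methods of the study describe its experiments in general as done in biological replicates, while the labels do not tie these libraries to separate cultures, so p-values measure the spread between these libraries, a part of which may be technical. More RNA per cell and more cells of a high-expressing kind cannot be told apart in such bulk samples.

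Summed together, the 39 genes took a slightly larger part of the counts after SEL120-34A in both replicated lines. In LNCaP their summed share was 0.272 to 0.305% of all counts in DMSO and 0.310 to 0.340% in SEL120-34A libraries. In 22Rv1 it was 0.473 to 0.491% in DMSO and 0.507 to 0.513% after treatment. Every treated library was thus above every control of its line. The single treated PC3 library went the other way, from 0.476 to 0.401%.

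Gene by gene, most differences were small and above 0, and few members passed the test. In LNCaP, 27 of 31 tested members had a log2 fold change above 0, against 50.1% of all 7086 genes tested, and the median was 0.22 against 0.00 for all genes. Of the members, 3 rose and 0 fell past the threshold, an adjusted p under 0.05 by edgeR's quasi-likelihood test. For comparison, 141 of the 7086 tested genes (1.99%) rose and 55 fell, so falls were less common than rises among all genes too. Treated libraries lay above all controls for 8 members and below all controls for 0, where 8.76% of all tested genes lay above and 10.7% below. At an unadjusted p under 0.05 there were 9 of 31 members, all higher, against 13.5% of all genes in either direction and 7.86% that were higher. With the DESeq2 Wald test, and also with no filter on low counts, 0 members passed in LNCaP and 2 in 22Rv1, with limma-trend 1 and 2.

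In 22Rv1, 26 of 31 members had a log2 fold change above 0, against 50.3% of all genes, with a median of 0.29 against 0.00. Past the threshold, 4 members rose and 0 fell, while of all 7086 genes 294 (4.15%) rose and 110 fell. The 3 treated libraries were above the 3 controls for 11 members, against 12.4% of all genes, and below them for 2, against 10.5%. At an unadjusted p under 0.05 there were 10 members, of which 9 were higher, where all genes gave 19.1% in either direction and 11.1% higher. In the mean effect over both lines, 4 members rose and 0 fell, while of all 7086 genes 275 (3.88%) rose and 151 fell. In that mean 15 members had an unadjusted p under 0.05, all of these higher. Of all genes, 19.9% had such a p in the mean and 11.4% were also higher.

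**Figure D1:**
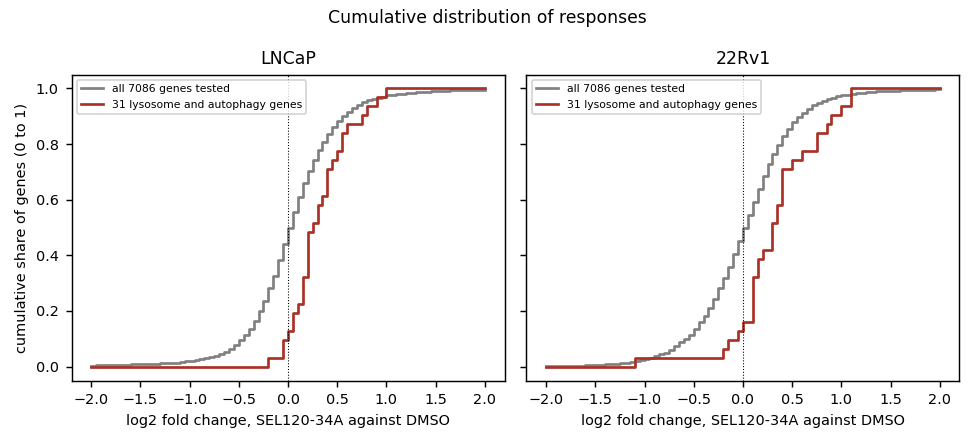
Cumulative share of genes (0 to 1, vertical axis) at or below each log2 fold change (horizontal axis) for the 31 tested members and for all 7086 tested genes, in LNCaP (left) and 22Rv1 (right). The members' curve lies to the right of the curve of all genes over most of its range, with medians of 0.22 and 0.29.

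These counts rested on scaling and depth to a known extent. With library totals in place of TMM factors, the median of all genes moved to -0.08 in LNCaP and -0.14 in 22Rv1. Members above 0 then numbered 24 and 19, but those above the median of all genes were 27 and 26. Under that scaling 2 members rose in LNCaP, and in 22Rv1 2 rose and 1 (CTSC) fell. Removing mitochondrial genes before scaling left 27 and 26 members above 0 and 3 and 4 past the threshold. With all libraries thinned to the smallest total, 22 of 28 tested members were above 0 in each line.

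Among the lysosomal membrane proteins, LAMP2 and NPC1 rose in LNCaP, where 1.99% of all genes rose. All 4 tested members of this group had unadjusted p-values under 0.05 there, as did 13.5% of all genes, with a median log2 fold change of 0.64. In 22Rv1 the group's median was 0.19 and 0 of 4 passed the threshold, where 4.15% of all genes rose past it. The median of all genes was 0.00 in each line.

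LAMP2 (ENSG00000005893.17, chromosome X, 120426148 to 120469365, GRCh38) encodes a main glycoprotein of the lysosomal membrane, of which 1 splice form serves as the receptor of chaperone-mediated autophagy. Counts per gene do not separate splice forms. LAMP2 was at 141, 118 and 116 CPM in LNCaP DMSO and at 222, 252 and 156 CPM in LNCaP SEL120-34A libraries. In 22Rv1 it was lower, at 35.3, 39.3 and 26.2 CPM in DMSO and 44.1, 55.8 and 59.9 CPM after treatment. Groups did not overlap in either line. The log2 fold change was 0.75 ± 0.18 (SE) (adjusted p = 0.0134, edgeR) in LNCaP and 0.70 ± 0.30 (adjusted p = 0.168) in 22Rv1, and the mean over both lines passed the threshold at 0.73 ± 0.18 (adjusted p = 0.00635). Leaving out DMSO replicate 2 (adjusted p = 0.0586) or 3 (0.102), or SEL120-34A replicate 1 (0.0843) or 2 (0.241), ended the call in LNCaP, whereas the mean over both lines passed in all 22 alternatives.

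NPC1 (ENSG00000141458.13, chromosome 18, 23506184 to 23586506) exports cholesterol from lysosomes. Its LNCaP levels were 33.8, 44.5 and 32.2 CPM in DMSO and 66.3, 92.2 and 52.8 CPM after treatment, from 17 to 34 counts per library. The treated libraries were all above the controls, with a log2 fold change of 0.99 ± 0.27 (adjusted p = 0.0351). In 22Rv1 the values were 19.6, 20.6 and 23.9 CPM in DMSO and 24.8, 17.2 and 34.2 CPM after treatment, which overlapped (log2 fold change 0.29 ± 0.38). The LNCaP call did not hold without LNCaP DMSO replicate 1 (adjusted p = 0.122) or 3 (0.187) or without SEL120-34A replicate 1 (0.0996) or 2 (0.408). On the opposite strand, the gene RMC1 has exons within the last 300 bases of NPC1, and whether strand was used in counting is not given in the sources used here.

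LAMP1 (ENSG00000185896.11, chromosome 13, 113297239 to 113323672), the companion of LAMP2 in the membrane, was at 97.2, 78.5 and 88.1 CPM in LNCaP DMSO and 144, 155 and 90.8 CPM after treatment. The third treated library lay within the range of the controls, and the log2 fold change of 0.54 ± 0.21 missed the threshold (adjusted p = 0.192). In 22Rv1 it was at 110, 112 and 115 CPM in DMSO and 91.0, 133 and 137 CPM after treatment, a difference of 0.09 ± 0.21 that turned to -0.05 with library totals and to -0.02 without 22Rv1 SEL120-34A replicate 3. SCARB2 (ENSG00000138760.11), the receptor that carries beta-glucocerebrosidase to lysosomes, was at 169, 170 and 157 CPM in LNCaP DMSO and 218, 230 and 192 CPM after treatment. These did not overlap, but the change of 0.40 ± 0.17 missed the threshold (adjusted p = 0.243). In 22Rv1, SCARB2 was at 62.8, 74.9 and 62.0 CPM in DMSO and 46.9, 85.8 and 82.7 CPM after treatment.

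The mucolipin channel MCOLN1 (ENSG00000090674.16), which releases calcium from lysosomes, was the membrane protein with too few counts to test. LNCaP libraries held 5, 7 and 6 counts in DMSO and 1, 1 and 3 after treatment, and 22Rv1 libraries held 3, 5 and 8 against 0, 1 and 1. Its scaled levels were 7.04, 18.3 and 8.39 CPM against 3.90, 2.71 and 6.34 CPM in LNCaP. In 22Rv1 they were 5.89, 9.36 and 9.54 CPM against 0, 4.29 and 2.85 CPM. Levels in treated libraries were below all controls in both lines, at counts where 3 counts correspond to 3.86 to 12.2 CPM. Exons of PNPLA6 on the same strand overlap the last 300 bases of MCOLN1.

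Among lipid hydrolases and lipid-handling proteins, SMPDL3A and NPC2 had the smallest adjusted p-values of the 31 tested members in the mean of both lines. In this group of 8, 1 member rose in LNCaP and 2 in 22Rv1, where 1.99% and 4.15% of all genes rose. The group's medians were 0.46 and 0.29 on the log2 scale, against 0.00 for all genes in both lines.

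SMPDL3A (ENSG00000172594.13, chromosome 6, 122789049 to 122809720) encodes a phosphodiesterase related to acid sphingomyelinase. LNCaP libraries had 46.5, 57.6 and 57.3 CPM in DMSO and 93.6, 97.6 and 95 CPM after SEL120-34A. 22Rv1 libraries had 236, 168 and 190 CPM in DMSO and 386, 382 and 314 CPM after SEL120-34A. Every treated library was above every control in both lines, and the fold was nearly equal although the starting levels were not. The log2 fold change was 0.87 ± 0.22 (adjusted p = 0.0178) in LNCaP and 0.88 ± 0.15 (adjusted p = 0.000124) in 22Rv1, and the difference between lines was -0.01 with a 95% interval from -0.71 to 0.69. The mean over both lines was 0.87 ± 0.13 (adjusted p = 2.18e-05). The 22Rv1 call held in all 23 alternatives, while the one in LNCaP failed in 7, among them the fits lacking DMSO replicate 1 (adjusted p = 0.0985) or SEL120-34A replicate 1 (0.059) or 2 (0.0966). The PC3 libraries held 27 SMPDL3A counts in DMSO and 8 after treatment (29.4 and 14 CPM).

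NPC2 (ENSG00000119655.11, chromosome 14, 74476192 to 74494177) is the soluble protein that hands cholesterol to NPC1. It was at 43.2, 52.4 and 32.2 CPM in 22Rv1 DMSO and 85.4, 137 and 54.2 CPM after treatment. The lowest treated library lay just above the highest control, and the log2 fold change was 1.10 ± 0.27 (adjusted p = 0.00977). In LNCaP it was at 54.9, 52.4 and 53.1 CPM in DMSO and 89.7, 92.2 and 80.2 CPM after treatment. These groups were well apart, yet the change of 0.72 ± 0.26 missed the threshold (adjusted p = 0.139). The mean over both lines was 0.91 ± 0.19 (adjusted p = 0.00133) and passed in all 22 alternatives. The 22Rv1 call was lost without 22Rv1 DMSO replicate 3 (adjusted p = 0.100) or SEL120-34A replicate 2 (0.177). NPC2 shares the strand of the microRNA gene MIR4709 within its last 300 bases.

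SMPD1 (ENSG00000166311.10), acid sphingomyelinase itself, was at 38.0, 31.4 and 23.8 CPM in LNCaP DMSO and 54.6, 35.2 and 46.5 CPM after treatment. 22Rv1 libraries had 17.7, 15 and 10.7 CPM in DMSO and 19.3, 25.8 and 25.7 CPM after treatment, from 6 to 9 counts per library. Groups overlapped in LNCaP and not in 22Rv1, and neither change passed the threshold (0.55 ± 0.31 with adjusted p = 0.447, and 0.74 ± 0.42 with adjusted p = 0.353).

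PSAP (ENSG00000197746.15), the precursor of the saposins that help enzymes reach their lipid substrates, was apart between arms in both lines but in opposite directions. LNCaP libraries held 400, 309 and 324 CPM in DMSO and 425, 480 and 433 CPM after treatment. 22Rv1 libraries held 956, 951 and 1019 CPM in DMSO and 904, 919 and 947 CPM after treatment. The changes were 0.40 ± 0.13 (adjusted p = 0.115) and -0.07 ± 0.12 (adjusted p = 0.827), and their difference of 0.46 ± 0.18 was not past the threshold (adjusted p = 0.297). GRN, the precursor of granulins, went from 70.5 ± 5.33 to 104 ± 30.7 CPM in LNCaP (SD, n = 3) and from 89.3 ± 3.94 to 109 ± 24.3 CPM in 22Rv1, also short of the threshold.

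For the other lipid proteins neither line gave a change past the threshold. Acid ceramidase, ASAH1 (ENSG00000104763.20), was at 194, 170 and 141 CPM in LNCaP DMSO and 152, 111 and 163 CPM after treatment, and in 22Rv1 at 41.2, 37.4 and 33.4 CPM against 41.3, 34.3 and 37.1 CPM. The thioesterase PPT1 averaged 164 ± 22.9 and 164 ± 15.2 CPM in LNCaP and 118 ± 27.3 and 110 ± 37.6 CPM in 22Rv1 (DMSO and SEL120-34A, SD, n = 3). GM2A, the activator protein for ganglioside breakdown, was at 40.9, 15.7 and 30.8 CPM in LNCaP DMSO and 23.4, 46.1 and 19.0 CPM after treatment. Its 22Rv1 libraries held 2, 2 and 4 counts in DMSO and 3, 2 and 0 after treatment, which gave a 95% interval of the log2 fold change from -1.45 to 2.08.

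Of the glycosidases, which remove sugars from glycoproteins and glycolipids, 4 of 7 were tested. Among these 1, NEU1, rose, in 22Rv1, where 4.15% of all genes rose. NEU1 (ENSG00000204386.12, chromosome 6, 31857659 to 31862905) is the lysosomal sialidase. It was at 33.4, 52.4 and 33.4 CPM in 22Rv1 DMSO and 46.9, 103 and 85.6 CPM after treatment. The first treated library lay within the range of the controls, and the log2 fold change was 0.96 ± 0.28 (adjusted p = 0.0323). LNCaP values overlapped, at 19.7, 23.6 and 28.0 CPM against 27.3, 29.8 and 23.2 CPM (0.18 ± 0.37). The 22Rv1 call failed in 11 of 22 alternatives. Among these were the fits without 22Rv1 DMSO replicate 1 (adjusted p = 0.110) or 3 (0.170) and without 22Rv1 SEL120-34A replicate 2 (0.217) or 3 (0.132).

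HEXA, a subunit of beta-hexosaminidase, went from 8.66 ± 2.50 to 20.8 ± 12.1 CPM in 22Rv1 at 3 to 9 counts per library, and from 24.1 ± 4.55 to 29.0 ± 5.25 CPM in LNCaP. Neither passed the threshold. Acid alpha-glucosidase, GAA (ENSG00000171298.13), was at 121, 110 and 89.5 CPM in LNCaP DMSO and 144, 114 and 112 CPM after treatment. In 22Rv1, GAA was at 236, 217 and 222 CPM in DMSO and 248, 240 and 240 CPM after treatment, a small step without overlap (0.13 ± 0.15, adjusted p = 0.722). GLB1, the beta-galactosidase read out as a sign of senescence, averaged 43.7 ± 8.86 and 46.0 ± 18.0 CPM in LNCaP and 68.7 ± 11.5 and 71.9 ± 15 CPM in 22Rv1. GLA, FUCA1 and MAN2B1 were below the filter, with 2 to 18, 2 to 14 and 0 to 2 counts per library in these lines. MAN2B1 had 0 counts in all 6 22Rv1 libraries, which allows up to 3.86 CPM in the deepest of them and 12.2 CPM in the shallowest.

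The proteases gave no call in either line. A log2 fold change above 0 was found for 7 of 8 in LNCaP and 6 of 8 in 22Rv1, against 50.1% and 50.3% of all genes. Cathepsin B, CTSB (ENSG00000164733.22, chromosome 8, 11842524 to 11869533), came closest among those that were higher. It was at 39.3, 31.8 and 39.4 CPM in 22Rv1 DMSO and 60.6, 73.0 and 62.8 CPM after treatment. The groups were far apart, and the log2 fold change of 0.81 ± 0.26 just missed the threshold (adjusted p = 0.0515). In LNCaP its values were 104, 91.6 and 88.1 CPM against 117, 92.2 and 108 CPM (0.17 ± 0.20).

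Cathepsin C, CTSC (ENSG00000109861.17, chromosome 11, 88265069 to 88359684), which activates serine proteases of immune cells, had the lowest log2 fold change of the 31 tested members, in 22Rv1. 22Rv1 libraries had 49.1, 43.1 and 47.7 CPM in DMSO and 22.1, 17.2 and 22.8 CPM after treatment. All treated libraries were below all controls, and the log2 fold change of -1.12 ± 0.36 also fell just short (adjusted p = 0.0552). In LNCaP the gene was near the detection limit, at 12.7, 5.24 and 14 CPM in DMSO and 3.90, 13.6 and 19.0 CPM after treatment. CTSB passed the threshold in 22Rv1 in 4 alternatives and CTSC in 5, at adjusted p-values from 0.0168 to 0.0497.

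CTSA (ENSG00000064601.21), the protective protein that stabilises NEU1, was at 32.4, 31.4 and 25.2 CPM in LNCaP DMSO and 39, 24.4 and 25.3 CPM after treatment. Its 22Rv1 levels were 51.0, 88.0 and 68.0 CPM in DMSO and 99.2, 68.7 and 74.2 CPM after treatment, again with overlap. The log2 fold changes of CTSD, CTSL, CTSZ, LGMN and TPP1, the remaining proteases, ranged from -0.24 to 0.43, and no group was apart. Cathepsin D, the main aspartic protease, averaged 143 ± 31.3 CPM in LNCaP DMSO and 155 ± 34.6 CPM after treatment, and 149 ± 21.4 and 163 ± 22.8 CPM in 22Rv1.

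**Figure D2:**
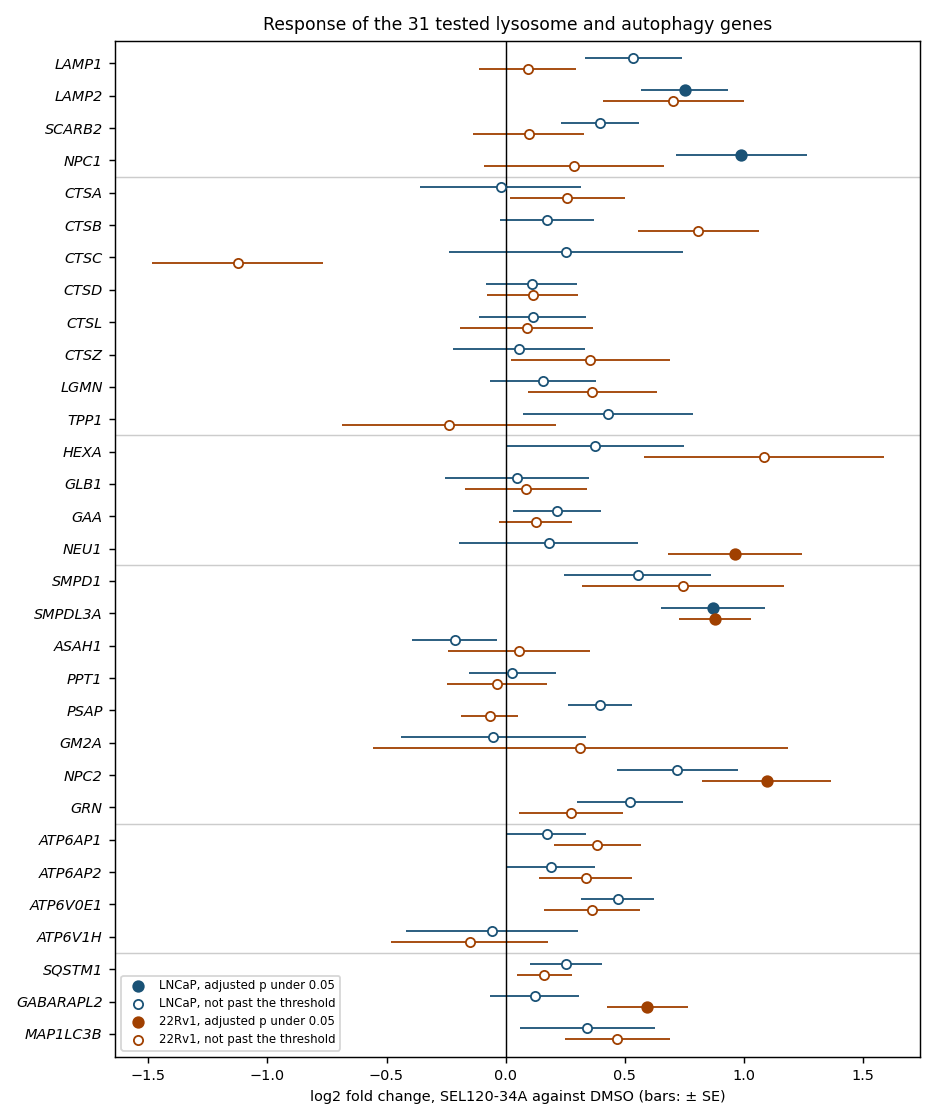
Log2 fold change of SEL120-34A against DMSO (horizontal axis, bars ± SE) of the 31 tested genes in LNCaP (blue) and 22Rv1 (orange), in order of role from membrane proteins at the top to autophagy genes at the bottom. Filled points passed the threshold in edgeR's test (3 in LNCaP, 4 in 22Rv1), most points lie to the right of 0, and CTSC in 22Rv1 lies furthest to the left, at -1.12.

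The proton pump was represented by 4 members. ATP6V0E1 (ENSG00000113732.9, chromosome 5, 172983771 to 173035445), a small subunit of its membrane sector, was at 179, 188 and 178 CPM in LNCaP DMSO and 288, 241 and 218 CPM after treatment. Levels in 22Rv1 were 84.4, 73.0 and 85.9 CPM in DMSO and 96.5, 120 and 99.8 CPM after treatment. Neither line had overlap between arms, and the mean over both lines rose by 0.42 ± 0.13 on the log2 scale (adjusted p = 0.0390). Within each line the change did not pass (0.47 ± 0.15 with adjusted p = 0.105 in LNCaP, 0.36 ± 0.20 with adjusted p = 0.335 in 22Rv1). The call on the mean was the least stable of all, lost in 16 of 22 alternatives. It failed whichever of the 12 libraries was left out, except LNCaP SEL120-34A replicate 3, with adjusted p-values up to 0.13.

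The accessory subunits ATP6AP1 and ATP6AP2 and the regulatory subunit ATP6V1H did not pass. ATP6AP1 went from 183 ± 23.0 to 207 ± 31.5 CPM in LNCaP and from 130 ± 5.55 to 170 ± 33.5 CPM in 22Rv1. ATP6AP2 went from 117 ± 5.98 to 131 ± 24.3 and from 100.2 ± 13.1 to 125 ± 25.9 CPM. ATP6V1H was at 35.0 ± 13.8 and 34.7 ± 13.6 CPM in LNCaP and at 50.7 ± 10.4 and 43.3 ± 28.8 CPM in 22Rv1.

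The autophagy members showed a rise in one gene, GABARAPL2, in 22Rv1. GABARAPL2 (ENSG00000034713.8, chromosome 16, 75566375 to 75577881) encodes a member of the LC3 and GABARAP family that acts late in autophagosome formation. It was at 222, 144 and 186 CPM in 22Rv1 DMSO and 320, 275 and 231 CPM after treatment. The groups did not overlap (log2 fold change 0.60 ± 0.17, adjusted p = 0.0282). In LNCaP it was at 149, 170 and 117 CPM in DMSO and 171, 133 and 156 CPM after treatment, fully overlapping (0.12 ± 0.19). The difference between lines, -0.47 ± 0.25, was not past the threshold (adjusted p = 0.481). The 22Rv1 call failed in 9 of 23 alternatives. It was lost without 22Rv1 DMSO replicate 2 (adjusted p = 0.161) or 3 (0.0875) and without SEL120-34A replicate 1 (0.231) or 2 (0.0873).

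MAP1LC3B (ENSG00000140941.14), the LC3 protein most used to mark autophagosomes, was at 36.6, 39.3 and 33.6 CPM in LNCaP DMSO and 50.7, 51.5 and 35.9 CPM after treatment. The 22Rv1 libraries had 86.4, 65.5 and 63.2 CPM in DMSO and 105, 98.7 and 88.4 CPM after treatment. The arms were apart in 22Rv1 alone, and neither change passed (0.34 ± 0.28 with adjusted p = 0.656, and 0.47 ± 0.22 with adjusted p = 0.233). SQSTM1 (ENSG00000161011.20) was at 203, 202 and 182 CPM in LNCaP DMSO and 207, 228 and 243 CPM after treatment. Far more was found in 22Rv1, at 1390, 1183 and 1337 CPM in DMSO and 1527, 1502 and 1309 CPM after treatment. Its changes of 0.25 ± 0.15 and 0.16 ± 0.12 did not pass, and MRNIP has exons on the opposite strand at the 3′ end of SQSTM1.

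The remaining autophagy members were too sparse for a test. GABARAP (ENSG00000170296.10) had 0, 0 and 0 counts in LNCaP DMSO and 1, 1 and 0 after treatment, and in 22Rv1 it had 0, 1 and 1 against 0, 0 and 2. GABARAPL1 (ENSG00000139112.11) was at 16.9, 18.3 and 25.2 CPM in LNCaP DMSO and 27.3, 13.6 and 23.2 CPM after treatment. Its 22Rv1 values were 9.82, 11.2 and 2.39 CPM against 5.51, 8.58 and 17.1 CPM. WIPI1, which binds the lipid that marks forming autophagosomes, had 1 to 9 counts per library in these lines. At this depth no change was detectable in these 3 genes. A fit without the filter tested all 39 genes, and none of the 8 sparse ones passed in either line.

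TFEB (ENSG00000112561.19, chromosome 6, 41683978 to 41736259), the transcription factor regarded as the master regulator of lysosomal genes, was also below the filter. It was at 19.7, 31.4 and 9.79 CPM in LNCaP DMSO and 42.9, 10.8 and 12.7 CPM after treatment. The 22Rv1 values were 17.7, 15 and 8.35 CPM in DMSO and 22.1, 17.2 and 17.1 CPM after treatment, at 4 to 9 counts per library. Arms overlapped in both lines. Its relative TFE3 was tested and passed in neither line (0.13 ± 0.30 with adjusted p = 0.908 in LNCaP, 0.62 ± 0.44 with adjusted p = 0.488 in 22Rv1). MITF had 1 to 9 counts per library in LNCaP and 0 to 4 in 22Rv1. These are messenger RNA levels, and TFEB is known to be controlled largely by phosphorylation and its location in the cell, which were not measured.

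**Figure D3:**
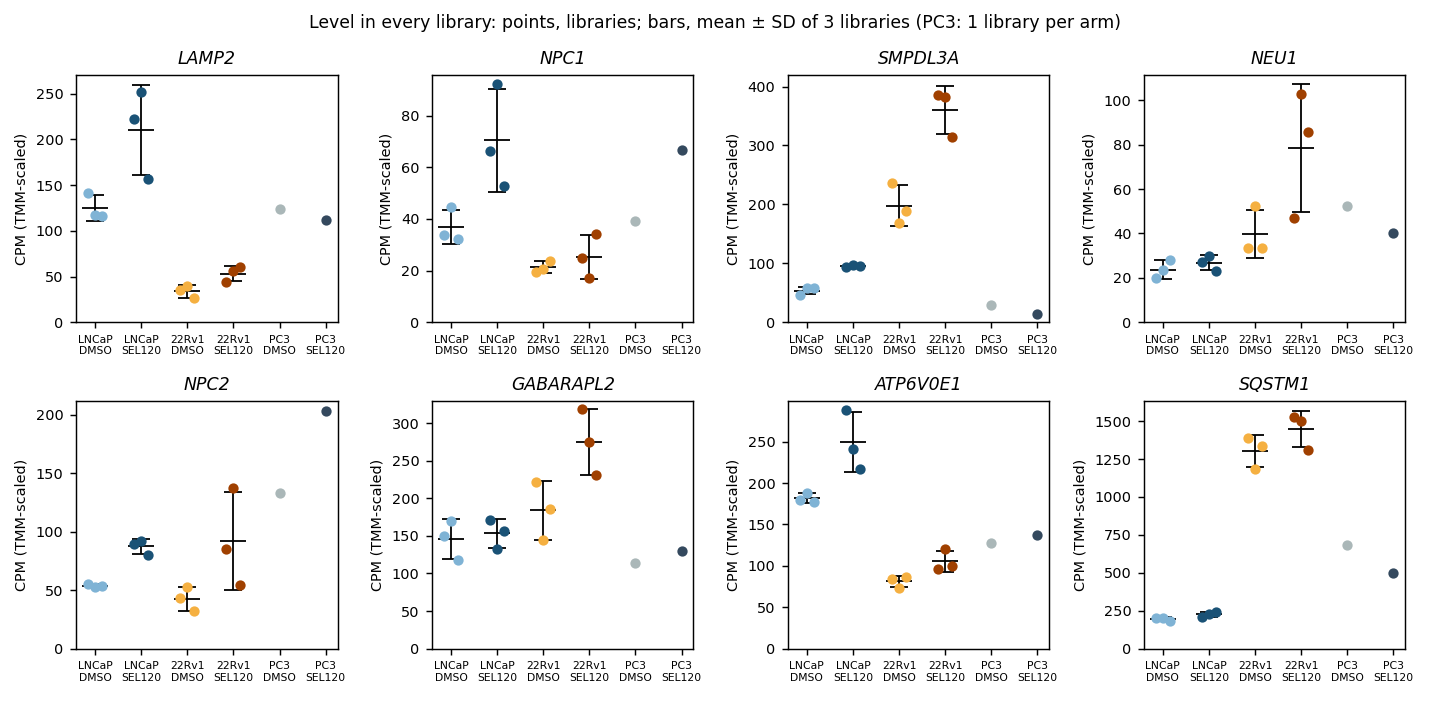
Level in every library (CPM, TMM-scaled, vertical axes from 0) of the 7 members past the threshold after treatment in a line or in the mean of both, and of SQSTM1. Points are libraries and bars are the mean ± SD of 3 libraries, with PC3 shown as 1 library per arm; for SMPDL3A, the treated points (93.6 to 97.6 in LNCaP, 314 to 386 in 22Rv1) lie above all controls of their line, while SQSTM1 differs between lines far more than between arms.

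The promoters of the members were examined for the letters CACGTG, the core of the element that TFEB and its relatives bind, which read the same on both strands. Windows from 250 bases before to 50 after the start were given by RefSeq (GRCh38.p14) for 30 of the 39 members. CACGTG was found in 6 of these (20%), against 7.43% of 27305 promoters and 11.4% of those of 2178 genes with at least 10 counts in every library. The longer palindrome TCACGTGA, which contains it, was found in 4 (13.3%), against 1.04% and 2.39%. Windows of NEU1 and CTSD held CACGTG but not the longer palindrome. The stretches with matches upstream of the start are shown because they contain the core letters of that element, with CACGTG in capitals.
LAMP1, chr13:113297027-113297236, plus strand: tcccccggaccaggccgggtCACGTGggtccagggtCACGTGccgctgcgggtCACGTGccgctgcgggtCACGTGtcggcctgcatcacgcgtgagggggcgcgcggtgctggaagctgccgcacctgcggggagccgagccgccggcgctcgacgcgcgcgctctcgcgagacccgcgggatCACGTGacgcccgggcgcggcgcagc
GAA, chr17:80101485-80101575, plus strand: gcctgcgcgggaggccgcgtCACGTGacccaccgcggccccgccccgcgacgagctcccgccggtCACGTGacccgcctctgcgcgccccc
MCOLN1, chr19:7522563-7522623, plus strand: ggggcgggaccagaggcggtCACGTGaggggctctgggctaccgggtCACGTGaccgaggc
CTSA, chr20:45891273-45891334, plus strand: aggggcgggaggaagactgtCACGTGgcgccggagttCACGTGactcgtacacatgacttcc
NEU1, chr6:31862922-31862967, minus strand: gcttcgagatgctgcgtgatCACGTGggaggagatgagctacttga
CTSD, chr11:1763949-1763994, minus strand: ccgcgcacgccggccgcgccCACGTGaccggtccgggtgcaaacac

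Of the 6 genes with these promoters, all but MCOLN1 were tested and 1 passed the threshold in a line. Of all genes, 1.99% rose in LNCaP and 4.15% in 22Rv1. LAMP1 had 6 copies in its window, 5 of them shown, with the first 192 bases before the start, and its log2 fold changes were 0.54 in LNCaP and 0.09 in 22Rv1. Those of GAA were 0.22 and 0.13, those of CTSD 0.11 and 0.11, and those of CTSA -0.02 and 0.26, while MCOLN1 was too sparse to test. NEU1, with 1 copy 126 bases before the start, was the member of the 6 that passed the threshold, in 22Rv1. That call failed in 11 of 22 alternatives. Of the other members past the threshold, NPC1, NPC2 and GABARAPL2 had windows without these letters, and LAMP2, SMPDL3A and ATP6V0E1 had no window in the table. A match is a run of letters and not a measured binding site.

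Responses of the members in LNCaP and 22Rv1 were then compared directly, by a contrast of both effects that used the same 12 libraries. None of the 31 members differed past the threshold, against 0.734% of all genes, and at an unadjusted p under 0.05 there were 2 (6.45%), against 11.4% of all genes. These were PSAP, given above, and CTSC, with a difference (LNCaP minus 22Rv1) of 1.38 ± 0.63 (adjusted p = 0.393). Intervals of the difference were wide. For LAMP2 it ran from -0.70 to 0.80, for NPC1 from -0.24 to 1.64, for NPC2 from -1.12 to 0.37 and for NEU1 from -1.73 to 0.16. Calls made in a single line, such as NPC1 and NEU1, were therefore not shown to belong to that line.

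More members differed between the untreated lines than after treatment. Of the 31 members, 13 were higher and 8 lower in LNCaP DMSO than in 22Rv1 DMSO libraries, and 10 did not pass. Among all genes 24% were higher and 25% lower. The median difference of the members was 0.34 on the log2 scale.

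The members lower in LNCaP were led by SQSTM1, at 195 ± 11.8 CPM in LNCaP and 1303 ± 108 CPM in 22Rv1 DMSO libraries (SD, n = 3). That is a log2 difference of -2.74 ± 0.13 (adjusted p = 1.21e-20), and PC3 lay between them at 685 CPM. PSAP was lower by 1.49 ± 0.12 (adjusted p = 2.87e-13) and SMPDL3A by 1.88 ± 0.18 (adjusted p = 2.01e-11), with levels as given above. CTSC was at 10.6 ± 4.72 CPM in LNCaP and 46.6 ± 3.16 CPM in 22Rv1, and at 341 CPM in PC3 DMSO. CTSA, GAA, MAP1LC3B and GLB1 were also lower in LNCaP, by differences of -0.70 to -1.22.

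Higher in LNCaP were GM2A, ASAH1 and LAMP2, by 2.80 ± 0.51, 2.19 ± 0.20 and 1.94 ± 0.23 on the log2 scale (adjusted p = 1.58e-05, 5.97e-12 and 2.08e-09). The GM2A value rests on 2 to 4 counts per library in 22Rv1. ASAH1 stood at 169 ± 26.6 against 37.4 ± 3.92 CPM and LAMP2 at 125 ± 13.9 against 33.6 ± 6.70 CPM. PC3 was again between the lines for ASAH1, at 82.7 CPM, and close to LNCaP for LAMP2, at 124 CPM. CTSB (1.35), SCARB2 (1.32), HEXA (1.36), ATP6V0E1 (1.15) and SMPD1 (1.14) were higher in LNCaP as well. Differences of 0.50 to 0.82 were seen for LGMN, CTSL, CTSZ, ATP6AP1 and PPT1. Acid sphingomyelinase and its relative SMPDL3A thus differed in opposite directions between the lines. Levels of CTSD, NPC2, TPP1, ATP6AP2, GABARAPL2, GRN, LAMP1, NPC1, NEU1 and ATP6V1H did not pass. NPC1 (edgeR, adjusted p = 0.0509) and NEU1 (0.0538) missed narrowly. Both passed in some alternatives, as did GABARAPL2 (4 of 22), GRN, LAMP1 and ATP6V1H. The sparse GABARAPL1, at 2 to 6 counts per library in 22Rv1 DMSO, was higher in LNCaP in some, by 1.52 with no filter (adjusted p = 0.00845). Of the 21 calls, PPT1 was lost in 8 of 22 alternatives, CTSZ in 6 of 21 and GLB1 in 6 of 22, all 3 of them with DESeq2 and with limma-trend. ATP6AP1 and SMPD1 were lost in 2 each and CTSL and LGMN in 1, and the other calls held in every alternative run. Without 22Rv1 DMSO replicate 3, the adjusted p was 0.0764 for PPT1, 0.239 for CTSZ, 0.111 for GLB1 and 0.0628 for SMPD1. Without LNCaP DMSO replicate 1 it was 0.162 for CTSZ, 0.0691 for ATP6AP1 and 0.0661 for SMPD1. Without LNCaP DMSO replicate 3 it was 0.153 for PPT1 and 0.128 for GLB1, and without 22Rv1 DMSO replicate 2 it was 0.107 for PPT1.

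**Figure D4:**
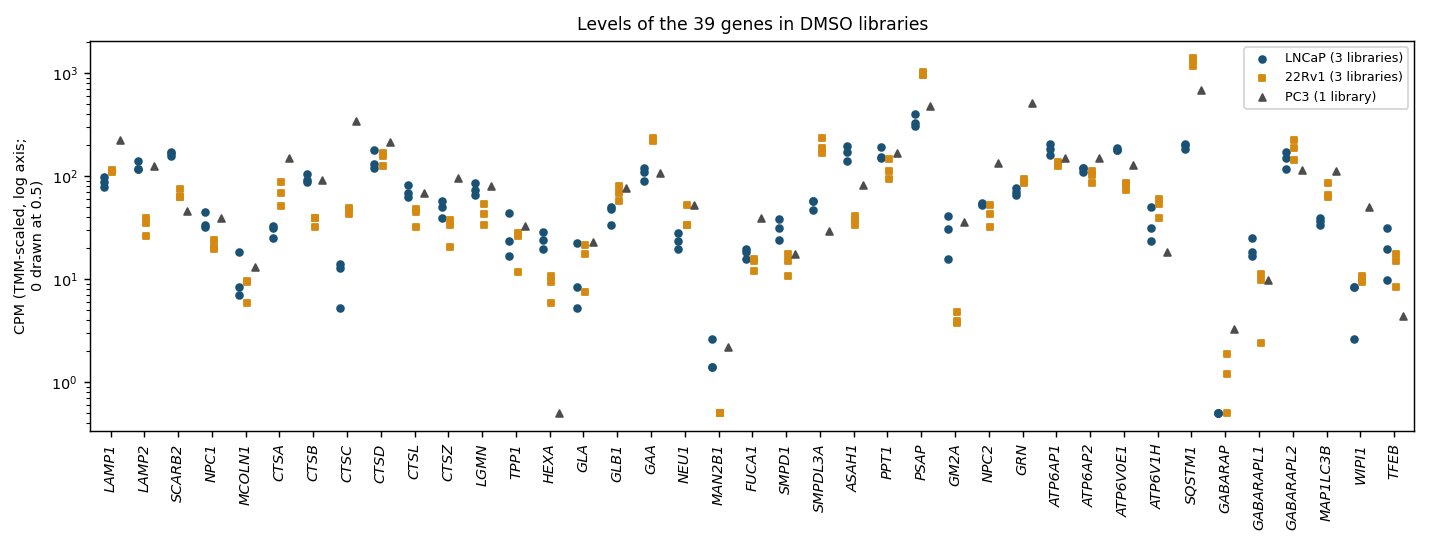
Levels of all 39 members in DMSO libraries (CPM, TMM-scaled, log axis, 0 drawn at 0.5) in LNCaP (3 libraries), 22Rv1 (3) and PC3 (1). SQSTM1, PSAP, SMPDL3A and CTSC lie lower in LNCaP than in 22Rv1, GM2A, ASAH1 and LAMP2 lie higher, and HEXA is at 0 in PC3.

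In PC3, with 1 library per arm, the values compare 2 libraries and carry no test. Of 30 members with at least 10 counts in both, 11 were higher after SEL120-34A (36.7%, against 56.1% of 7089 genes), and the median log2 ratio was -0.14 against 0.05 for all these genes. Past 1.5-fold there were 2 members higher, NPC1 and NPC2, and 2 lower, SCARB2 and ATP6AP1, where all genes gave 10.1% higher and 6.16% lower.

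NPC1 went from 39.2 to 66.6 CPM in PC3 (log2 ratio 0.77, exact 95% counting interval 0.07 to 1.46) and NPC2 from 133 to 203 CPM (0.61, 0.24 to 0.99). SCARB2 went from 45.7 to 22.8 CPM (-1.0, -2.03 to -0.08) and ATP6AP1 from 151 to 98.2 CPM (-0.62, -1.10 to -0.17). The abundant PSAP, GRN and SQSTM1 were also lower, at 484 and 324, 514 and 358, and 685 and 501 CPM. These 3 genes held 445, 472 and 629 counts in the DMSO library. LAMP2 (124 and 112 CPM), LAMP1 (223 and 233), GABARAPL2 (114 and 130), NEU1 (52.3 and 40.3) and MAP1LC3B (111 and 109) had counting intervals that included 0. The intervals cover counting error only, with each count taken as a separate molecule. HEXA had 0 counts in both PC3 libraries, which allows up to 3.30 CPM in DMSO and 5.16 CPM after treatment, where LNCaP DMSO libraries held 19.7 to 28.8 CPM.

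**Figure D5:**
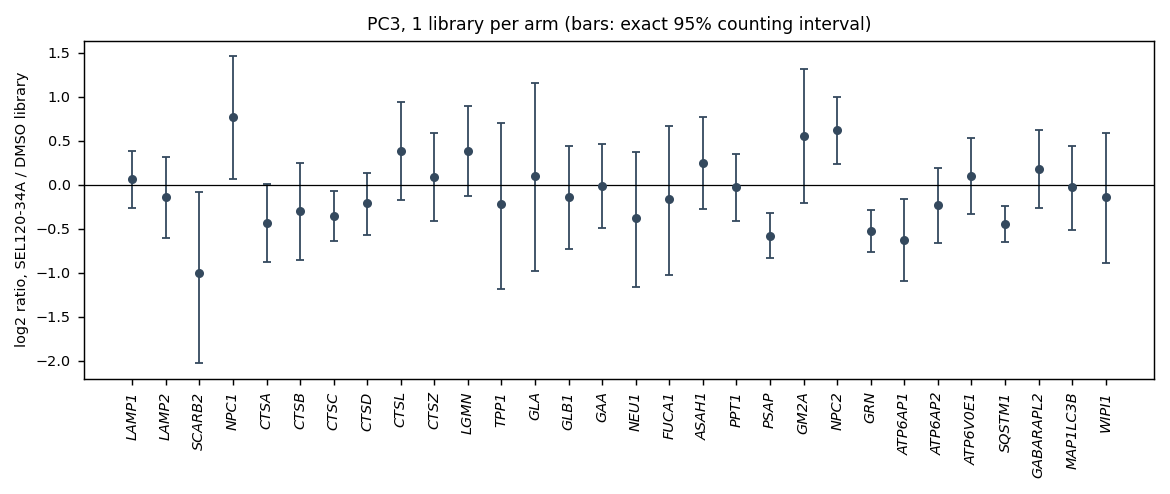
Log2 ratio of the treated to the DMSO library of PC3 (vertical axis) for the 30 members with at least 10 counts in both, with exact 95% counting intervals as bars. NPC1 (0.77) and NPC2 (0.61) lie highest with intervals above 0, and SCARB2 (-1.0) lies lowest.

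Further genes of the same pathways, 128 in all, were listed by role to place the members, and 71 of them were tested. This list, too, was made with earlier results of these data known. In LNCaP 3 rose and 0 fell, where 1.99% of all genes rose and 55 of 7086 fell. Of the further genes 56 (78.9%) were above 0, with a median of 0.29, against 50.1% of all genes. In 22Rv1 6 rose and 0 fell, where 4.15% of all genes rose and 110 of 7086 fell. Here 47 further genes (66.2%) were above 0, with a median of 0.14, against 50.3% of all genes. In the mean of both lines 9 further genes rose and 0 fell (median 0.21), where 3.88% of all genes rose and 151 of 7086 fell. Of the 12 tested membrane proteins among them, 2 rose in LNCaP, 3 in 22Rv1 and 4 in the mean. The 20 tested genes of the autophagy machinery had medians of 0.04 and 0.08, with 0 and 1 past the threshold.

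In LNCaP the further genes that rose were SCPEP1, a serine carboxypeptidase (34.9 ± 6.03 to 98.1 ± 12.3 CPM, 1.46 ± 0.25 on the log2 scale, adjusted p = 0.000162), LAMTOR3 and CD63. LAMTOR3 belongs to the Ragulator complex that anchors mTORC1 signalling to the lysosome, and it went from 34.2 ± 4.2 to 71.8 ± 5.43 CPM (1.10 ± 0.26). The tetraspanin CD63 rose in both lines, from 365 ± 28.4 to 506 ± 40.7 CPM in LNCaP (0.49 ± 0.13, adjusted p = 0.0287) and from 625 ± 26.1 to 851 ± 115 CPM in 22Rv1 (0.45 ± 0.12, adjusted p = 0.0242). In 22Rv1 the ubiquitin-like protein ATG12 rose from 38.9 ± 6.66 to 101 ± 16.1 CPM (1.35 ± 0.25, adjusted p = 0.000317). The proton pump subunit ATP6V0B rose by 0.51 ± 0.13, the membrane protein LAPTM4A by 0.72 ± 0.18 and the protease CTSF by 1.12 ± 0.29. In LNCaP the values of ATG12 were 25.9 ± 5.88 and 32.1 ± 6.09 CPM.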

How the data were processed

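The members and all gene lists were chosen with earlier results of these data known. Raw counts per gene were deposited by the authors, made with STARsolo on GRCh38.p13 and a GENCODE annotation (labels and methods of the study). Whether molecular identifiers were collapsed is not given in the sources used here. An interval or a floor reflects counting error alone, with each count taken as a separate molecule. If identifiers were not collapsed, it can understate that error. A second deposited table holds log2 CPM values of 9638 genes, which edgeR's low-count filter over 6 groups and a prior count of 2 gave back to within 5e-14. These served for 1 alternative.

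Counts were tested with edgeR 4.0.16 (R 4.3.3) in 1 model of the 12 LNCaP and 22Rv1 libraries with a mean for each of 4 groups, TMM factors, the quasi-likelihood F-test and filterByExpr, which kept 7086 genes, with Benjamini-Hochberg adjustment over all genes at 0.05. The biological coefficient of variation was 11.1%. Contrasts were treatment in each line, their mean, their difference and LNCaP DMSO against 22Rv1 DMSO. Named genes were all members, with values per library for those past the threshold (at most 12 per comparison) and for a chosen panel of SMPDL3A, SMPD1, SQSTM1, LAMP1, LAMP2, TFEB, MAP1LC3B and the GABARAP genes. Further genes were named for the 5 smallest adjusted p-values past the threshold, and TFE3 and MITF with TFEB. MCOLN1, CTSB and CTSC in 22Rv1 were singled out after their values were seen. Chi-square per degree of freedom between replicate libraries was 1.32 to 2.69, above counting error. Coordinates are those of GENCODE release 44. On simulated counts, 200 genes per line, drawn from the 7086, were changed by 1 on the log2 scale. The filter then kept 6577 genes, and a changed gene that it dropped counted as not recovered. The simulation was run once and gave each gene the same starting mean in both lines, unlike these data. The test recovered 56% (LNCaP) and 55% (22Rv1). Of its calls, 8.94% and 6.78% were false, more than the share of 0.05 that the threshold aims at. Alternatives were other scalings, filters, thresholds and tests (DESeq2 1.42.0, limma 3.58.1), thinning, a replicate block, each line alone, each library left out and, added after seeing the data, mitochondrial genes removed.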

Additional observations from a re-analysis of the deposited data

How the results depend on the processing

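The count of members past the threshold was 3 in LNCaP and 4 in 22Rv1. In LNCaP it was 0 with no filter, 0 with the DESeq2 Wald test, 1 with limma-trend and 0 at an adjusted p under 0.01, and leaving out each library gave 0 to 6. It was 0 without LNCaP SEL120-34A replicate 1 or 2, 1 without LNCaP DMSO replicate 1 or 3, and 6 without SEL120-34A replicate 3, when ATP6V0E1, LAMP1 and GRN joined. In 22Rv1 it was 2 with no filter, 2 with DESeq2, 2 with limma-trend and 2 at an adjusted p under 0.01. Leaving out each library gave 1 to 5 in 22Rv1, with 1 without 22Rv1 DMSO replicate 3 or SEL120-34A replicate 2. It was 5 without LNCaP SEL120-34A replicate 1 or 3, when CTSC passed as lower (log2 fold change -1.14 in both fits). These counts are not set beside the share of all genes under each alternative. The causes were not tested. The mean of both lines gave 3 to 5 members in all 22 alternatives, the contrast between DMSO arms 15 to 23 and the difference between lines 0 in all 22.

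Differences that missed the threshold changed sign in places. GABARAPL2 in LNCaP became -0.0246 when thinned, and -0.0187 to 0.215 over the fits that each lacked a library. LAMP1 in 22Rv1 became -0.0542 with library totals, and -0.0246 to 0.285 over such fits. Between lines, over such fits, LAMP2 spanned -0.114 to 0.28, SMPD1 -0.359 to 0.0575, MAP1LC3B -0.234 to 0.0909 (0.0542 when thinned) and SMPDL3A -0.125 to 0.104. SMPDL3A, whose main value was -0.01, also took 0.0502 with library totals, 0.0852 with at least 10 counts in every library, 0.0795 when thinned and 0.0136 without mitochondrial genes.

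Deviations of same-numbered libraries from their group means had correlations of 0.08, -0.05 and 0.12 in LNCaP and 0.02, -0.01 and 0.03 in 22Rv1. Between differently numbered libraries they were -0.16 to 0.07 in LNCaP and -0.07 to 0.05 in 22Rv1. Values this small cannot decide whether the numbers pair the samples. With the replicate number as a block, 3 members passed in LNCaP, 5 in 22Rv1, 4 in the mean, 0 in the difference and 23 between the DMSO arms. The member added in 22Rv1 was CTSC, which was lower after treatment (log2 fold change -1.14). Depth limits the sparse members most, since 3 counts stand for 3.86 to 12.2 CPM in the LNCaP and 22Rv1 libraries.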
